A study of Mus musculus with 40 samples.

Results

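Hyaluronan is a long sugar chain that fills the matrix of the cervix and uterus, and 9 mouse genes that make, cut or bind it were followed here: Has1, Has2, Has3, Hyal1, Hyal2, Cemip, Cd44, Vcan and Tnfaip6. They were chosen by name, and all 9 were among the 23079 genes of the deposited count table. RNA had been sequenced from cervix and from myometrium (the muscle layer of the uterus) of pregnant mice of the inbred strain C57BL/6, near term at 18.5 days post coitum. Each mouse was given human chorionic gonadotropin (hCG), a placental hormone, or phosphate-buffered saline (PBS) into the peritoneal cavity, which gave 4 groups of 10 libraries: hCG cervix, PBS cervix, hCG myometrium and PBS myometrium. No mutant allele or other agent is named for any group, and the sources used here give neither the dose nor how long before collection it was injected. Whether a library's number stands for an animal is not stated, and the p-values measure the spread between libraries, which may be technical.

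Hyaluronan is built at the plasma membrane by the synthases Has1, Has2 and Has3, which push the growing chain out of the cell. Outside the cell it is bound by proteoglycans such as versican and by surface receptors such as CD44, and it is cut by hyaluronidases, first outside the cell and then in lysosomes. In the cervix late in pregnancy hyaluronan accumulates as the tissue takes up water and softens before birth. The hormone hCG acts on the luteinizing hormone receptor, and in the ovary the luteinizing hormone surge turns on Has2, Tnfaip6 and versican in the cells around the egg.

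Total counts ran from 5449239 to 25028360 per library, and all 9 genes passed the filter on low counts in every comparison. The cervix libraries fell into a deeper class (6 hCG and 4 PBS, at least 16613261 counts) and a shallower class (at most 11602678 counts). Markers fitted the labelled tissues. The summed level of 10 squamous epithelium genes was 9434 to 62240 CPM (counts scaled to a common library size) in PBS cervix. It was at most 47.1 CPM in any myometrium library. All 7 smooth muscle markers were called higher in myometrium than in cervix of PBS mice, beside 26.1% of all genes. In hCG mice 5 of 7 were called higher in myometrium, beside 19.4% of all genes. Some libraries stood apart. In hCG cervix, libraries 3 and 5 had low squamous levels (1456 and 891.4 CPM) with urothelium markers at 312.4 and 1041 CPM (group median 12.3), library 5 had smooth muscle markers at 24910 CPM (median 19930 CPM in hCG myometrium), and library 1 had skeletal muscle markers at 5386 CPM (group median 87.9). In PBS cervix libraries 5 to 8, 3.51 to 17.5% of all counts fell on Lars2, a mitochondrial tRNA synthetase gene, against at most 0.122% in the other cervix libraries and up to 5.63% in myometrium. In myometrium, 5 hCG and 3 PBS libraries had a mean log2 CPM above 8 for genes of yolk sac endoderm, a fetal membrane. The tissues were sequenced whole, so fewer cells of a type and less RNA per cell cannot be told apart.

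Promoter sequences are shown for the 3 members with an entry whose tissue difference passed the test in the same direction in both sets of mice, Cd44 (higher in cervix) and Vcan and Hyal1 (higher in myometrium). Each is a promoter entry of 250 bases on GRCm38.p6, written 5′ to 3′ on the gene's strand. Matches to the GC box GGGCGG on either strand are in capitals. The end of a window is not always the gene start of the RefSeq table. By that table Vcan spans 89655309 to 89743027, so its window lies inside the gene. Cd44 spans 102811141 to 102901669, which its window overlaps, and the Hyal1 window ends just before the gene start at 107576950. The windows are chr2:102901666-102901915 on the minus strand for Cd44, chr13:89742513-89742762 on the minus strand for Vcan and chr9:107576700-107576949 on the plus strand for Hyal1.
Cd44: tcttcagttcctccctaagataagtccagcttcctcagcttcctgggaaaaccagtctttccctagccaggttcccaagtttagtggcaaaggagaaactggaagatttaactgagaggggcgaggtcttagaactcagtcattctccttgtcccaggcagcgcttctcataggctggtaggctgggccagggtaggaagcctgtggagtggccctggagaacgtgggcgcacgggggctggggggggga
Vcan: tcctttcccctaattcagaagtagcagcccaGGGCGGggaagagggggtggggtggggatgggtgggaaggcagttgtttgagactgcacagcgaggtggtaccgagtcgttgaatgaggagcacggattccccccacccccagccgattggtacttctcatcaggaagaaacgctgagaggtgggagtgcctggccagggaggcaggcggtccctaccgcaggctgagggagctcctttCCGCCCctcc
Hyal1: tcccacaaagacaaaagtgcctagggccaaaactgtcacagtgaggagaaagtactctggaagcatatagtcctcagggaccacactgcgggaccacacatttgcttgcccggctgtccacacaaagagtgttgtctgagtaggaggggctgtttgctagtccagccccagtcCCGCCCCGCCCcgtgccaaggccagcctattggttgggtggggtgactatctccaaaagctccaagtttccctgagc
The Cd44 window held no match to any motif searched. Vcan held 2 GC boxes, 219 and 10 bases before the end of its window, and Hyal1 held 2 overlapping ones at 77 and 72 bases. Of 32851 promoters of the same length, 32.7% held a GC box. The other motifs searched on both strands were TATAAA (12.4% of promoters), the AP-1 site TGANTCA (6.75%), the cAMP response element TGACGTCA (1.55%), the E-box CACGTG (6.02%) and the NF-kB consensus (5%). Among the other members with an entry, Has1 had a cAMP response element 83 bases before the end of its window. Tnfaip6 had an AP-1 site at 142 bases and a GC box. Hyal2 had an NF-kB match and a GC box, and Cemip had TATAAA at 29 bases and 2 GC boxes. The Has1 and Hyal2 windows also lie inside the gene of the RefSeq table, and the Cemip window overlaps its gene. These are matches of letters and were not measured as binding. A promoter entry matched 7 of the 9 members. Has2 and Has3 had none.

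The members differed widely in level per transcript length (RPKM, CPM per kilobase of exon). In PBS cervix Has2 was highest at 90.3 ± 36.6 RPKM (SD, n = 10, as for all group means here), followed by Cd44 at 57.96 ± 29.5, and these neighbours overlapped within their SD. Has3 at 12.6 ± 4.34 and Vcan at 10.6 ± 3.91 RPKM formed the next pair and also overlapped. Hyal2, Hyal1, Tnfaip6, Cemip and Has1 stood between 4.73 and 1.52 RPKM. In PBS myometrium the order was different. Vcan was highest at 19.1 ± 3.28 RPKM and Cd44 next at 11.1 ± 2.46, while Hyal1 at 5.39, Hyal2 at 4.47 and Has2 at 3.42 RPKM lay within their spread of each other, and Cemip was lowest at 0.488 RPKM.

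**Figure D1:**
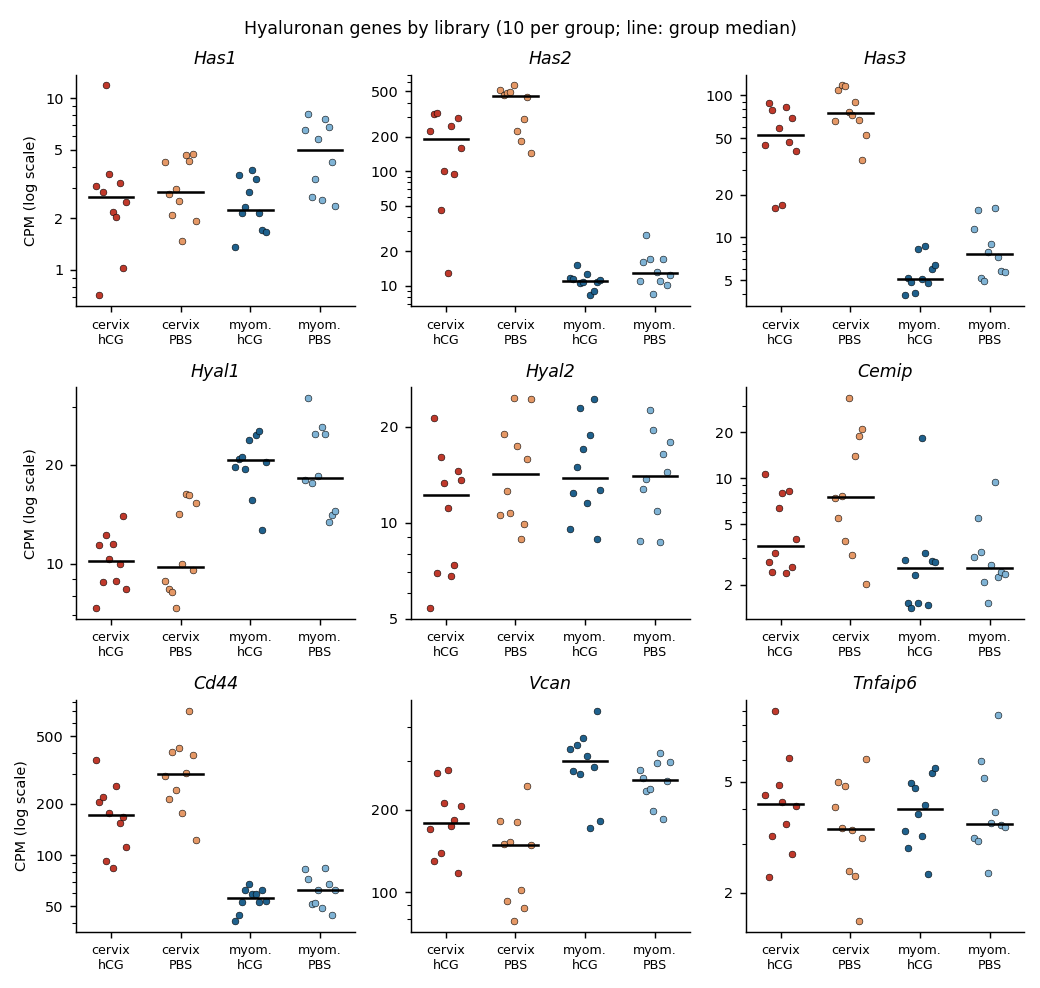
Level of each hyaluronan gene in every library, in CPM on a log axis that does not start at 0 and differs between panels, for the 4 groups of 10 libraries (myom., myometrium); points are libraries and lines are group medians. Has2, Has3 and Cd44 of PBS cervix lie above every PBS myometrium library, and Has2 of hCG cervix spreads from 12.9 to 322 CPM. The share of all genes with such a gap between the tissues was not counted.

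The tissues differed in 7 of the 9 members in PBS mice, with Has2, Has3, Cemip and Cd44 higher in cervix and Has1, Hyal1 and Vcan higher in myometrium (edgeR quasi-likelihood test, Benjamini-Hochberg adjusted p under 0.05). Of all 14545 genes tested, 54% differed, 28% higher in cervix and 26.1% higher in myometrium, so a large share of genes was called in this comparison. In hCG mice 5 members differed, Has2, Has3 and Cd44 higher in cervix and Hyal1 and Vcan higher in myometrium, where 43.7% of all genes were called, 24.3% higher in cervix and 19.4% higher in myometrium. The median log2 difference of the 9 members, cervix minus myometrium, was 0.07 in PBS mice and 0.39 in hCG mice, beside 0.04 and 0.07 over all genes. Where groups are said below not to overlap, the share of all genes without overlap was not counted.

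Among the synthases, Has2 showed the widest gap between the tissues. In PBS mice its lowest, median and highest libraries were at 145.2, 458.6 and 568.5 CPM in cervix and at 8.45, 12.9 and 27.99 CPM in myometrium. Every PBS cervix library was above every PBS myometrium library, and Has2 was 25.9-fold higher in cervix (log2 4.70, SE 0.28, adjusted p = 7.24e-12). In hCG mice it ran from 12.9 over a median of 191.6 to 322.3 CPM in cervix and from 8.24 over 11.1 to 15.1 CPM in myometrium. The groups touched through a single cervix library, number 5, which fell within the myometrium range, and the other 9 lay above it. It is also the cervix library with the lowest squamous and the highest smooth muscle marker level, whose part in its Has2 value was not tested. The log2 difference there was 4.02 (SE 0.419, adjusted p = 1.63e-07).

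Has3, the other synthase with a high level in cervix, had the same order. In PBS mice its lowest, median and highest libraries were at 35.0, 74.7 and 118.3 CPM in cervix and at 4.96, 7.59 and 16.0 CPM in myometrium, without overlap, a log2 difference of 3.16 (SE 0.26, adjusted p = 1.23e-09). The hCG libraries did not overlap either, with 16.0 to 88.0 CPM in cervix and 3.90 to 8.73 CPM in myometrium (log2 3.22, SE 0.289, adjusted p = 1.99e-08). Has1 went the other way in PBS mice, at a far lower level. It ran from 1.47 over 2.86 to 4.72 CPM in cervix and from 2.36 over 4.99 to 8.05 CPM in myometrium, and the groups overlapped. Its difference, -0.66 on the log2 scale (SE 0.276, adjusted p = 0.0492), lay at the threshold: it was called in 13 of 27 alternatives, whose adjusted p ran from 0.00184 to 0.115, and it lost its call in 12 of the 20 fits that left out 1 library (cervix 2, 3, 4, 5, 10 or R3, or myometrium 1, 4, 6, 8, 10 or R3). In hCG mice Has1 did not pass (log2 0.41, SE 0.368, adjusted p = 0.385), and without hCG cervix library 3 the difference was -0.0952.

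As a share of synthase RPKM, Has2 made up 84.9 ± 6.15% in PBS cervix and 74.8 ± 14.1% in hCG cervix, against 48.1 ± 15% in PBS myometrium and 56.1 ± 8.5% in hCG myometrium. Has1 was 1.66 ± 0.957% of the synthases in PBS cervix and 32.7 ± 10.7% in PBS myometrium. The mean share of Has3 lay between 13.4% in PBS cervix and 19.2% in PBS myometrium. These shares are descriptions of relative mRNA level and were not tested.

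**Figure D2:**
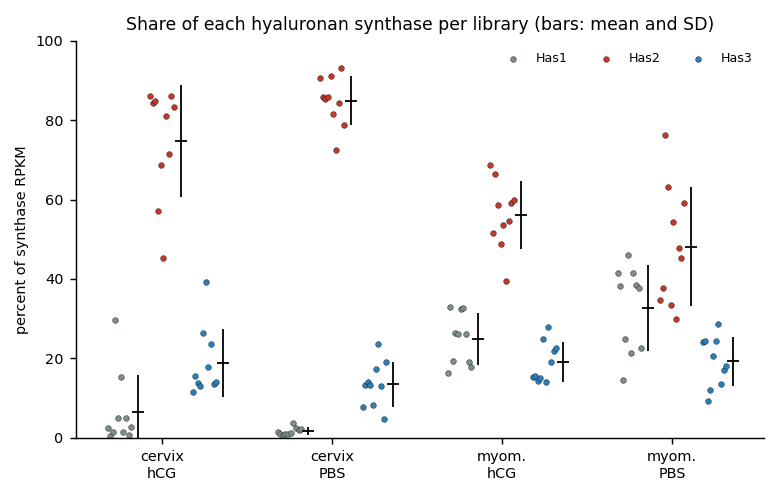
Share of each of the 3 hyaluronan synthases in their summed RPKM, in percent from 0 to 100, by group; points are the 10 libraries, and black marks are the mean with SD. Has2 takes 72.6 to 93.2% in PBS cervix, and 29.8 to 76.1% in PBS myometrium, where Has1 holds a larger share than in cervix.

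Has2os, a long noncoding RNA on the strand opposite Has2 (chromosome 15, 56689944 to 56694460, inside the span of Has2, 56665627 to 56694546), followed Has2. It stood at 46.1 ± 16.7 CPM in PBS cervix and 2.16 ± 0.935 CPM in PBS myometrium (log2 4.41, SE 0.283, adjusted p = 2.41e-11). After the group means were subtracted, the log2 levels of Has2 and Has2os correlated with r = 0.91 over the 40 libraries. The sources used here do not give the strand setting of the counting, so reads of this pair cannot be told apart with certainty. The same holds for Hyal1, which overlaps Hyal3 and Naa80, and for Has1, which overlaps Spaca6.

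Among the enzymes that cut hyaluronan, Hyal1, the lysosomal hyaluronidase, was higher in myometrium. In PBS mice its lowest, median and highest libraries were at 7.34, 9.78 and 16.3 CPM in cervix and at 13.4, 18.3 and 31.9 CPM in myometrium. The groups overlapped, but all 10 cervix libraries were below the myometrium median, and the log2 difference was -0.85 (SE 0.198, adjusted p = 0.00104). In hCG mice 9 of 10 cervix libraries were below the lowest myometrium library (log2 -0.9997, SE 0.135, adjusted p = 4.96e-06). Hyal2, which is anchored at the cell surface and cuts long chains, did not pass in either comparison: it stood at 15.4 ± 5.87 CPM in PBS cervix and 14.6 ± 4.59 CPM in PBS myometrium (log2 0.07, SE 0.212, adjusted p = 0.807), and the difference in hCG mice was -0.42 (SE 0.248, adjusted p = 0.184). Cemip, a protein needed for hyaluronan depolymerisation outside lysosomes, was higher in cervix of PBS mice, with 2.04, 7.55 and 33.7 CPM as lowest, median and highest in cervix and 1.53, 2.57 and 9.49 CPM in myometrium. The groups overlapped, with 4 cervix libraries (4, 6, 7 and 8) above all myometrium libraries (log2 1.73, SE 0.454, adjusted p = 0.00279). Libraries 6 to 8 are among the 4 PBS cervix libraries with a high share of Lars2. Cemip was called in all 27 alternatives, among them the fit without PBS cervix libraries 5 to 8. Over these the log2 difference ran from 1.18 to 2.05 and the adjusted p from 0.000158 to 0.032.

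In hCG mice the tissue difference of Cemip turned on 1 library. Its level in hCG myometrium was at most 3.23 CPM except in library 5, which was at 18.5 CPM, and the log2 difference of 0.39 (SE 0.468) had an adjusted p of 0.526. Without that library the difference was 1.17 with an adjusted p of 0.00592, where the 27 alternatives ran from 0.00592 to 0.923. The same library had the highest level of the 6 adipocyte markers (162.5 CPM, group 1.17 to 162.5, median 6.38) and of the 6 ovarian granulosa and luteal markers (1761 CPM, group 23.7 to 1761, median 62.6), and no marker of these lists was at 0 in all libraries of the group. The part of such RNA in the Cemip value was not tested.

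Among the binding proteins, Cd44, the main cell surface receptor for hyaluronan, was higher in cervix. In PBS mice its lowest, median and highest libraries were at 123.1, 298.8 and 706.2 CPM in cervix and at 44.6, 62.1 and 84.6 CPM in myometrium, with no overlap. It was 5.20-fold higher in cervix (log2 2.38, SE 0.249, adjusted p = 5.05e-08). In hCG mice the groups were again separate, 84.3 to 361.3 CPM in cervix and 41.0 to 67.7 CPM in myometrium (log2 1.71, SE 0.211, adjusted p = 1.62e-06). Vcan, which encodes the large proteoglycan versican, was higher in myometrium: 78.6, 149.2 and 244.5 CPM in PBS cervix against 185.4, 256.9 and 321.5 CPM in PBS myometrium. All but 1 of the PBS cervix libraries were below the lowest myometrium library, and the log2 difference was -0.87 (SE 0.176, adjusted p = 0.000265). It was -0.68 in hCG mice (SE 0.181, adjusted p = 0.00445). Tnfaip6, which moves heavy chains of inter-alpha-inhibitor onto hyaluronan, was low in all groups, between 3.61 ± 1.38 CPM in PBS cervix and 4.45 ± 1.94 CPM in hCG cervix, and passed in neither comparison (adjusted p = 0.405 in PBS mice and 0.635 in hCG mice).

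**Figure D3:**
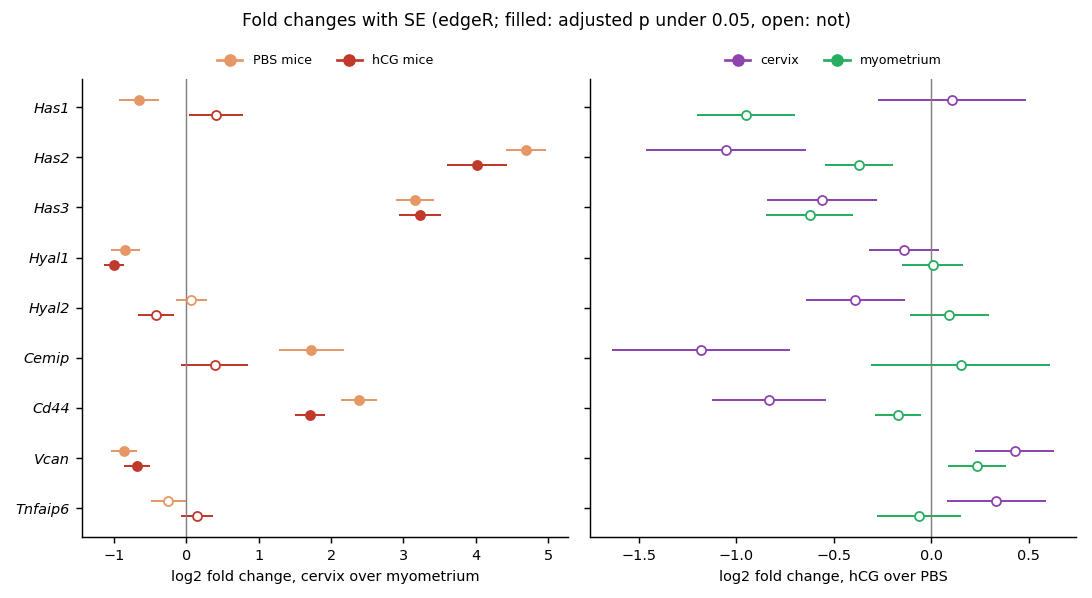
Log2 fold change with SE of the 9 genes, cervix over myometrium in PBS and in hCG mice (left) and hCG over PBS in cervix and in myometrium (right); filled points have an adjusted p under 0.05 in edgeR. Has2 shows the largest tissue difference at 4.70 in PBS mice, and every point on the right is open.

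The study asked how hCG changes gene expression in these tissues. In cervix no member of the 9 passed the test between hCG and PBS mice with edgeR, where 8.91% of 14932 genes did. At an unadjusted p under 0.05 there were 4 members (Has2, Cemip, Cd44 and Vcan), where 29.2% of all genes reached that level. DESeq2 called 3 members (Has2, Cemip and Cd44), beside 2283 of the 14932 genes. The median log2 change of the 9 was -0.39, beside 0.01 over all genes, with 6 negative and 3 positive. The PBS cervix libraries of this comparison are also those of the tissue comparison.

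Has2 had lowest, median and highest libraries at 12.9, 191.6 and 322.3 CPM in hCG cervix and at 145.2, 458.6 and 568.5 CPM in PBS cervix. The groups overlapped, although all 10 hCG libraries were below the PBS median and 4 were below the lowest PBS library. The log2 change was -1.05 (SE 0.41, adjusted p = 0.0959; 0.0471 with DESeq2, and 0.0471 to 0.947 over 32 alternatives). Has2os changed by -1.19 (SE 0.38, adjusted p = 0.052). Has3 ran from 16.0 over 52.6 to 88.0 CPM in hCG cervix against 35.0 to 118.3 CPM in PBS cervix (log2 -0.56, SE 0.282, adjusted p = 0.191). Has1 stood at 0.711 to 3.6 CPM in 9 hCG cervix libraries and at 11.9 CPM in library 3, against 1.47 to 4.72 CPM in PBS cervix. Its log2 change was 0.11 (SE 0.382, adjusted p = 0.878), and without library 3 it was -0.39 (adjusted p = 0.432, the lowest over its 32 alternatives, which reached 0.981). That library also had mesothelium markers at 349.2 CPM (5 genes, 12.1 to 1275 CPM over the hCG and 7.42 to 53.9 CPM over the PBS libraries, none at 0 throughout), adipocyte markers at 3648 CPM (6 genes, 4.98 to 3941 CPM in hCG and 56.3 to 399.7 CPM in PBS cervix, none at 0 throughout) and the highest macrophage marker level of the group (10 genes, 1225 CPM). Library 5, with the highest mesothelium level, had Has1 at 2.16 CPM. Of the 5 mesothelium genes, Upk3b and Upk1b are uroplakin genes, as are the 3 urothelium markers, so these lists are not independent. In libraries 3 and 5 the urothelium markers were at 312.4 and 1041 CPM. The part of such RNA in the Has1 value was not tested.

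Cemip had lowest, median and highest libraries at 2.39, 3.6 and 10.7 CPM in hCG cervix and at 2.04, 7.55 and 33.7 CPM in PBS cervix. The ranges overlapped throughout, and the 4 highest values were those of PBS libraries 4, 6, 7 and 8. Of these, libraries 6 to 8 had a high share of Lars2. The log2 change was -1.18 (SE 0.456, adjusted p = 0.0938; 0.0466 with DESeq2, and 0.0466 to 0.799 over 32 alternatives). Hyal1 was at 10.3 ± 2.02 and 11.4 ± 3.6 CPM in hCG and PBS cervix (log2 -0.14, SE 0.178, adjusted p = 0.634), and Hyal2 at 11.7 ± 5.07 and 15.4 ± 5.87 CPM (log2 -0.39, SE 0.254, adjusted p = 0.319). Cd44 ran from 84.3 over 172.2 to 361.3 CPM in hCG cervix against 123.1 over 298.8 to 706.2 CPM in PBS cervix. The groups overlapped, with 9 of 10 hCG libraries below the PBS median. Its log2 change of -0.84 (SE 0.293) had an adjusted p of 0.0696. The call depended on the method and on single libraries, and Cd44 passed in 4 of 32 alternatives. These were DESeq2, the smooth muscle score as a covariate and 2 of the 20 fits that left out 1 library. In those 2 fits the adjusted p was 0.0346 without hCG library 1 and 0.0344 without PBS library R3. Over the 32 alternatives it ran from 0.0196 to 0.928. Vcan was at 117.7, 178.9 and 279.3 CPM in hCG cervix and at 78.6, 149.2 and 244.5 CPM in PBS cervix, with overlap (log2 0.43, SE 0.202, adjusted p = 0.163). Tnfaip6 differed by 0.33 (SE 0.255, adjusted p = 0.402).

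Within the depth classes the lowest adjusted p of any member was 0.117 among the deeper and 0.799 among the shallower libraries. Among the deeper cervix libraries the log2 changes were -1.67 for Has2, -1.23 for Cemip, -0.76 for Cd44 and 0.76 for Vcan. Among the shallower they were -0.44, -1.28, -1.02 and 0.06 in the same order. With the hCG libraries 1, 3 and 5 left out, Has2 differed by -0.78, Cemip by -1.48 and Cd44 by -0.84, and with the PBS libraries 5 to 8 left out by -1.26, -0.96 and -0.61. The lowest adjusted p of a member was 0.129 in the first of these fits and 0.125 in the second. All of these kept the sign seen with all 20 libraries.

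Levels in the cervix libraries were compared with those of the squamous epithelium markers, and of 18 relations only that of Has2 in hCG cervix passed, by Pearson's r and not by rank. In hCG cervix the log2 level of Has2 correlated with the mean log2 CPM of the 10 markers with Pearson's r = 0.92 (permutation p = 0.00137, adjusted p = 0.0247 over 18 relations) and Spearman's rho = 0.66 (permutation p = 0.0427, adjusted p = 0.192). Without libraries 5 and 3, the farthest from the median score, r was 0.61. In PBS cervix r was 0.74 and rho 0.53 (permutation adjusted p = 0.0716 and 0.299), and r was 0.52 without libraries 4 and R3. For Cd44 r was 0.75 in hCG cervix and 0.69 in PBS cervix, and rho was 0.71 and 0.75 (permutation adjusted p = 0.0716 and 0.0947 for r, 0.192 for each rho). Without the same libraries r was 0.46 and 0.51. Has3 had an r of 0.76 in hCG cervix (permutation adjusted p = 0.0716; 0.20 without libraries 5 and 3) and 0.08 in PBS cervix (permutation adjusted p = 0.938). Cemip had an r of -0.33 in hCG cervix and 0.63 in PBS cervix (permutation adjusted p = 0.54 and 0.158). Differences between the groups in these relations were not tested. For Vcan r was -0.51 and -0.36 (permutation adjusted p = 0.339 and 0.504), and rho was -0.61 and -0.41 (permutation adjusted p = 0.243 and 0.406). The summed squamous level itself was 891.4 to 15990 CPM in hCG cervix and 9434 to 62240 CPM in PBS cervix, and none of the 10 markers was at 0 throughout. In hCG cervix 9 of them were lower and 1 higher, with a median log2 change of -1.46 beside 0.01 over all genes. With edgeR 2 were called lower, beside 8.91% of all genes called in either direction. At an unadjusted p under 0.05 there were 8, beside 29.2% of all genes. With the squamous score as a covariate the hCG difference was 0.15 for Has2 (SE 0.295, adjusted p = 0.947), -0.19 for Cd44 (SE 0.288) and -1.05 for Cemip (SE 0.62), and 0 genes of all passed in edgeR, with 1137 at an unadjusted p under 0.05 (DESeq2 was not run with this covariate). The score and the treatment are linked in these libraries, and their parts cannot be told apart.

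**Figure D4:**
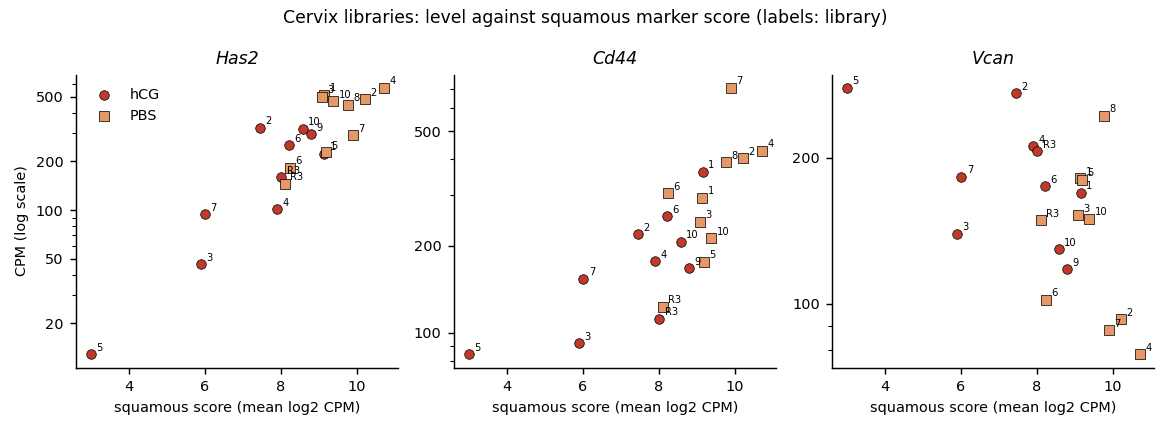
Level of Has2, Cd44 and Vcan in CPM on a log axis against the squamous score, the mean log2 CPM of 10 squamous epithelium markers, for the 20 cervix libraries; numbers are library labels. The hCG libraries 5 and 3 have the lowest scores and the lowest Has2 levels, 12.9 and 46.4 CPM.

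In myometrium no member passed between hCG and PBS mice with edgeR, where 0.0138% of 14517 genes did. At an unadjusted p under 0.05 there were 3 members, the synthases Has1, Has2 and Has3, where 15.5% of all genes reached that level. DESeq2 called Has1 alone of the members, beside 384 of the 14517 genes. Has1 ran from 1.36 over 2.25 to 3.81 CPM in hCG myometrium and from 2.36 over 4.99 to 8.05 CPM in PBS myometrium. The groups overlapped, although all 10 hCG libraries lay below the PBS median and 6 below the lowest PBS library. The log2 change was -0.95 (SE 0.253, adjusted p = 0.098; 0.0214 with DESeq2, and 0.0214 to 0.673 over 27 alternatives). Has2 was at 8.24, 11.1 and 15.1 CPM in hCG myometrium and at 8.45, 12.9 and 27.99 CPM in PBS myometrium (log2 -0.37, SE 0.173, adjusted p = 0.304). Has3 was at 3.90, 5.12 and 8.73 CPM against 4.96, 7.59 and 16.0 CPM (log2 -0.62, SE 0.225, adjusted p = 0.169). Values of all 3 synthases overlapped between the groups.

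The other members were closer in myometrium. The log2 changes were 0.01 for Hyal1 (SE 0.157), 0.09 for Hyal2 (SE 0.202), -0.17 for Cd44 (SE 0.118), 0.24 for Vcan (SE 0.149) and -0.06 for Tnfaip6 (SE 0.215), with adjusted p-values of 0.473 to 0.993. Cemip differed by 0.15 (SE 0.459, adjusted p = 0.925) and, without hCG library 5, by -0.68 (adjusted p = 0.289). The summed level of 6 yolk sac endoderm markers was 267.9 to 37110 CPM in hCG and 217.6 to 23600 CPM in PBS myometrium, none at 0 throughout. With that score as a covariate the differences were -1.01 for Has1, -0.35 for Has2 and -0.56 for Has3, and without the 8 libraries of high score they were -0.99, -0.48 and -0.50, with a lowest adjusted p among the members of 0.114 and 0.673.

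The response to hCG was compared between the tissues in a fit of all 40 libraries. No member differed with edgeR, where 0.352% of 15624 genes were called, or with DESeq2, where 566 were called. At an unadjusted p under 0.05 there were 2 members (Has1 and Cd44), where 20% of all genes reached that level. The response in cervix minus that in myometrium was 1.06 for Has1 (SE 0.469, adjusted p = 0.197), -0.68 for Cd44 (SE 0.32, adjusted p = 0.229), -1.34 for Cemip (SE 0.668, adjusted p = 0.253) and -0.69 for Has2 (SE 0.463, adjusted p = 0.404). For Has3 it was 0.05 (SE 0.367).

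The rest of the pathway was taken from 6 lists with 50 genes, all in the table. In PBS mice 37 were tested between the tissues, and 7 were higher in cervix and 22 higher in myometrium, beside the 28% and 26.1% of all genes given above. The median log2 difference was -0.45, beside 0.04 over all genes. In hCG mice 4 of 38 were higher in cervix and 19 higher in myometrium, beside 24.3% and 19.4% of all genes. Their median was -0.54, beside 0.07 over all genes. The counts per list below are to be read beside the same shares of all genes. These were 28% higher and 26.1% lower in cervix in PBS mice, and 24.3% and 19.4% in hCG mice.

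Supply of the sugar precursors was split, with 4 of 10 genes higher and 4 lower in cervix of PBS mice. Gfpt1, the rate-limiting enzyme of the hexosamine pathway, was at 563.2 CPM in cervix against 181.4 in myometrium (log2 1.62, SE 0.124), and Uap1, which makes UDP-N-acetylglucosamine, differed by 0.52 (SE 0.11). Gfpt2, the other form of this enzyme, was lower by -0.86 (SE 0.131). In hCG mice only Gfpt1 (log2 1.12, SE 0.218) and the salvage kinase Nagk (log2 -0.54, SE 0.148) of these 10 were called.

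Of the further breakdown genes, the lysosomal enzymes Hexa and Gusb and the membrane hyaluronidase Cemip2 were lower in cervix in both sets of mice. In PBS mice the log2 differences were -1.17 for Hexa (SE 0.212), -0.93 for Gusb (SE 0.143) and -0.45 for Cemip2 (SE 0.0883). In hCG mice they were -1.15, -0.78 and -0.55. Of the other receptors, 5 of 7 were lower and 1 higher in cervix of PBS mice, beside 26.1% and 28% of all genes. Lyve1, the receptor of lymphatic endothelium, was at 26.7 CPM in cervix against 181.7 in myometrium (log2 -2.78, SE 0.203), and the innate immune receptor Tlr4 differed by -0.92 (SE 0.119). Hmmr, a receptor linked to cell division, was higher in cervix (log2 1.01, SE 0.148). In hCG mice 4 of 7 receptors were lower, among them Tlr4 (log2 -0.91, SE 0.136), Lyve1 (-2.19, SE 0.328) and the scavenger receptor Stab1 (-1.36, SE 0.241). The 3 lymphatic endothelium markers were all lower in cervix in both comparisons, as were 9 of 10 macrophage markers in PBS mice, and their part in these differences was not tested.

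Of the proteins that crosslink or stabilise hyaluronan, 4 of 6 were lower in cervix in each set of mice. In PBS mice Ptx3, a crosslinker of hyaluronan in the ovary, differed by -2.83 (SE 0.453), and the heavy chain genes Itih5 and Itih3 by -2.002 (SE 0.332) and -3.62 (SE 0.711). In hCG mice these differences were -2.63, -1.60 and -3.59. Among the ADAMTS proteases that cut versican, Adamts15 was higher in cervix of PBS mice (log2 2.39, SE 0.225) and 3 of 6 were lower, among them Adamts5 (-1.13, SE 0.218) and Adamts9 (-1.32, SE 0.289). In hCG mice Adamts15 (2.21, SE 0.266) and Adamts20 (2.61, SE 0.342) were higher and 4 of 7 lower, among them Adamts9 (-1.33, SE 0.177). Of 4 proteins that link CD44 to the cell cortex, moesin (Msn) and ezrin (Ezr) were lower in cervix of PBS mice by -1.24 (SE 0.144) and -0.45 (SE 0.145), and Nf2, which encodes merlin, was higher by 0.64 (SE 0.103). All 3 kept their direction and their call in hCG mice, at -1.37, -1.003 and 0.23.

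**Figure D5:**
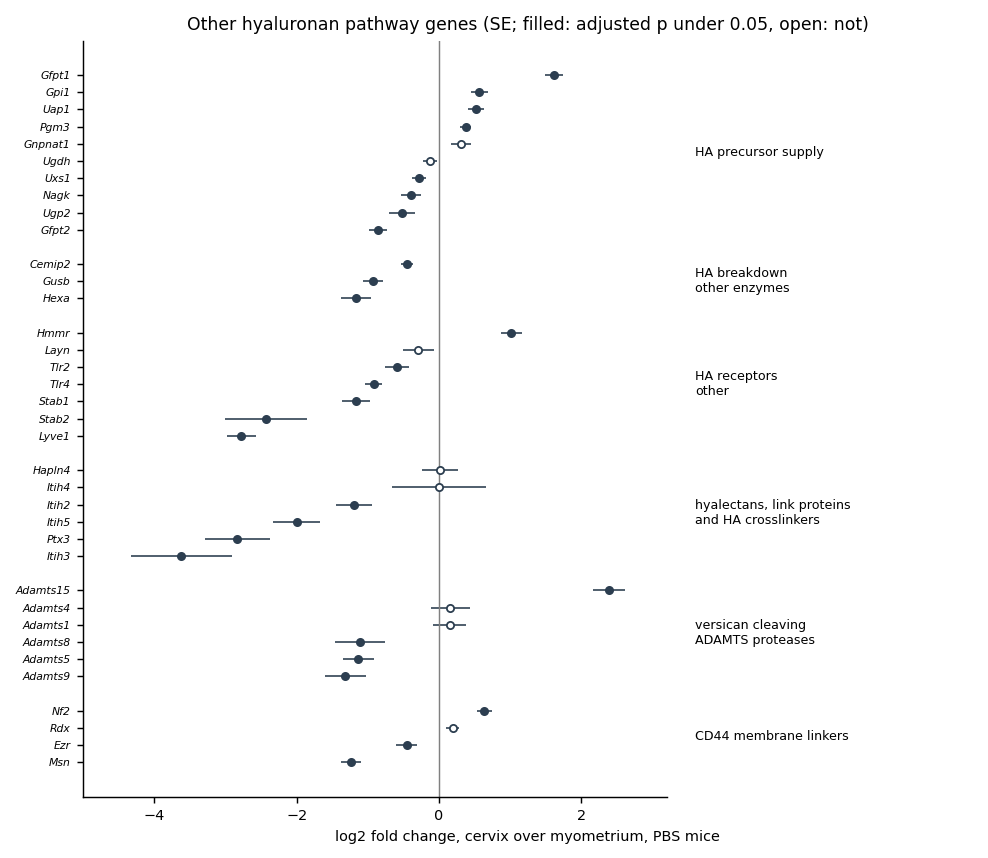
Log2 fold change with SE, cervix over myometrium in PBS mice, of 36 tested genes of 6 hyaluronan pathway lists (HA, hyaluronan); filled points have an adjusted p under 0.05 in edgeR. Hexa, Gusb and Cemip2 lie to the left of 0, and Adamts15 and Gfpt1 lie farthest to the right.

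Between hCG and PBS cervix, 5 of the 37 tested pathway genes passed, 1 higher and 4 lower, beside 8.91% of all genes. In the same comparison 3 of 5 tested neutrophil markers (median log2 change 2.34), 3 of 3 urothelium, 2 of 3 mesothelium and 2 of 10 macrophage markers were called higher in hCG cervix. So were 1 of 6 endothelium and 1 of 4 tested yolk sac endoderm markers. The urothelium and mesothelium lists both hold uroplakin genes. The part of all these markers in the pathway values was not tested. The summed level of the 6 neutrophil markers was 5.35 to 235.3 CPM in hCG and 6.56 to 23.2 CPM in PBS cervix, none at 0 throughout. Of the deeper hCG libraries, 1, 2, 3, 4 and 6 were at 79.1 to 235.3 CPM and library 5 at 5.35 CPM. The shallower hCG libraries were at 9.27 to 30.8 CPM. The part of depth in this level was not tested. Adamts4 was at 12.0 CPM in hCG and 39.3 CPM in PBS cervix (log2 -1.71, SE 0.328, adjusted p = 0.0263), and Adamts1 at 367.9 and 741.1 CPM (log2 -0.99, SE 0.257, adjusted p = 0.0306). Adamts5 was higher in hCG cervix, 48.1 against 21.9 CPM (log2 1.16, SE 0.286, adjusted p = 0.0294). Nf2 was lower by -0.40 (SE 0.11, adjusted p = 0.0338) and Ezr by -0.51 (SE 0.153, adjusted p = 0.0423). These calls were not stable to single libraries or to other settings. None of the 5 passed without hCG cervix library 3, without PBS cervix library 4, 7 or 8, or with the squamous score as a covariate. Few genes of any kind passed in those fits. The count was 8 of 14700 genes without hCG library 3. Without PBS library 4, 7 or 8 it was 1 of 14760, 1 of 15240 and 2 of 15262. With the squamous score it was 0 of 14932. None of the 5 passed among the shallower libraries, where 0 of 14394 genes did. The same held without hCG libraries 1, 3 and 5 (0 of 14755) and without PBS libraries 5 to 8 (1 of 15636). With the depth class as a term Adamts5, Ezr and Nf2 failed in edgeR (adjusted p = 0.0532, 0.0603 and 0.0531). Adamts1 and Adamts4 alone of the 5 passed there and among the deeper libraries. The signs of the 5 held in all 32 alternatives. Adamts1, Ezr and Nf2 also failed without hCG library 5 or PBS library 10, Nf2 without hCG library 7, and Ezr in 14 of the 20 fits that left out 1 library. Over the 32 alternatives the adjusted p of Adamts4 ran from 9.41e-05 to 0.799. Between hCG and PBS myometrium 0 of 38 pathway genes passed with edgeR. At an unadjusted p under 0.05 there were 4, a level that 15.5% of all genes reached. DESeq2 called 2 of them, beside 384 of 14517 genes. No pathway gene of 41 differed in its response between the tissues with edgeR. At an unadjusted p under 0.05 there were 8, beside 20% of all genes. DESeq2 called 1 pathway gene, beside 566 of 15624 genes.

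After the 4 group means were subtracted, the members varied with different sets of genes across the 40 libraries, which share depth and tissue makeup with each value. Besides Has2os, the levels most like Has2 among 15623 genes were those of Agr2 (r = 0.92), a secretory epithelial protein, and Ttc39c (0.88). Has3 was nearest to Meis2 (0.78) and Cd44 to Mapk6 (0.86), while Vcan was nearest to the integrin subunit Itgb1 (0.79) and the microfibril gene Fbn1 (0.78). Tnfaip6 was nearest to the antigen presentation gene H2-Aa (0.73), Hyal2 to Sgta (0.93) and Hyal1 to Kazn (0.76). Among the members, Has2 correlated with Has3 and with Cd44 (r = 0.51 each), and Cd44 went against Tnfaip6 (r = -0.44). Cemip and Has2 had an r of -0.05.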

How the data were processed

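The authors deposited raw counts for each gene in 1 table. TopHat2 and the build GRCm38 (mm10) are named in the submitters' processing notes. The sources used here give no counting tool, annotation or strand setting, and per the labels' protocols the libraries were stranded total RNA. Gene names came from a RefSeq table of GRCm38.p6 (23008 of 23079 identifiers matched, and the 71 others held 0.197% of counts) and exon lengths from GENCODE M21. Of 89 marker genes, 87 were in the table. A pathway gene counted in the lists is not reported here by name. The 9 members, the gene lists and the tests were chosen with earlier results of these data known. Genes named beyond the members were up to 3 called genes with the smallest p per pathway list and comparison and the 3 genes most like each member, some of them given here.

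Counts were filtered with filterByExpr, scaled by TMM and tested with edgeR 4.0.16 (quasi-likelihood F-test, robust, R 4.3.3), with Benjamini-Hochberg adjustment over all genes tested and a threshold of 0.05. SE was taken as the size of the log2 difference over the root of its F value. CPM were scaled by TMM over the 40 libraries, and log2 CPM used a prior count of 2. Correlations used 100000 permutations, two-sided. No pair of libraries in a group agreed within sampling noise (chi-square per gene at least 10.5). The alternatives were RLE and upper-quartile factors, DESeq2 1.42.0, no filter, the label number as a block, depth classes, marker scores as covariates and libraries left out. The smooth muscle covariate and the yolk sac cut were chosen after seeing the data. The fits were tested on simulated counts.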

Additional observations from a re-analysis of the deposited data

Results flagged for a closer look

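In CPM, 36 groups of 10 libraries (9 genes in 4 groups) were searched for a library standing apart. In 5 of them the gap from a library to its neighbour was large against the range of the group. Chance would meet the cut in about 1 group of 20 if the values were normally distributed. The CPM were not log-transformed for this search, so that rate may not hold here. All 5 flagged values were the highest of their group, and gaps on a log scale were not tested. Has1 was at 11.9 CPM in hCG cervix library 3, where the next library was at 3.6 CPM. Cemip was at 18.5 CPM in hCG myometrium library 5 (next 3.23 CPM) and at 9.49 CPM in PBS myometrium library 6 (next 5.48 CPM). Has2 was at 27.99 CPM in PBS myometrium library 2 (next 17.3 CPM). Cd44 was at 706.2 CPM in PBS cervix library 7 (next 426.8 CPM), and this library was among the 4 with a high share of Lars2.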

How the results depend on the processing

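Of 1080 refits of a member's value, 1017 kept both direction and side of the threshold, 41 changed sign, 14 lost a call and 8 gained one. None of the 41 was called before or after. In cervix the 1331 genes called between hCG and PBS became 2283 with DESeq2, 508 with the depth class as a term, 242 among the deeper and 0 among the shallower libraries (776 at an unadjusted p under 0.05 in edgeR), 0 with the squamous score as a covariate, 0 without hCG libraries 1, 3 and 5 (1137 and 2833 at an unadjusted p under 0.05 for the last pair; DESeq2 was run on all libraries without covariates) and 1 without PBS libraries 5 to 8, and 1 to 2065 with single libraries left out; the members called became 3 with DESeq2, 1 with the smooth muscle score and 0 to 1 with single libraries left out. With upper-quartile factors 67.2% of the calls were higher in hCG cervix, against 53.2%. Has1 turned to -0.0797 with the depth term, -0.81 in the shallower libraries, -0.48 with the squamous score and -0.45 without hCG libraries 1, 3 and 5 (-0.39 to 0.21 with single libraries left out). Hyal1 turned to 0.0604 in the deeper libraries and 0.0076 without PBS libraries 5 to 8, and Has2 to 0.15 and Tnfaip6 to -0.0785 with the squamous score.

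In myometrium the 2 genes called became 384 with DESeq2, 4 with the yolk sac score and 0 without the libraries of high yolk sac score (1089 at an unadjusted p under 0.05), and 1 to 137 with single libraries left out; the members called became 1 with DESeq2. Hyal1 turned to -0.0022 with RLE factors, -0.0025 with DESeq2 and -0.13 without the yolk sac libraries, Cemip to -0.65 with DESeq2 and -0.79 without the yolk sac libraries, and Tnfaip6 to 0.23 without them. With single libraries left out the ranges were -0.0594 to 0.0917 for Hyal1, -0.01 to 0.19 for Hyal2, -0.68 to 0.47 for Cemip and -0.14 to 0.0908 for Tnfaip6. For cervix against myometrium in hCG mice, Has1 turned to -0.15 and Tnfaip6 to -0.094 without hCG cervix libraries 1, 3 and 5, and Tnfaip6 to -0.13 without the yolk sac libraries. Ranges with single libraries left out were -0.0952 to 0.52 for Has1 and -0.037 to 0.21 for Tnfaip6, and -0.0294 to 0.16 for Hyal2 in PBS mice. For the difference of responses the 55 genes called became 566 with DESeq2, 24 without a filter, 2 without hCG cervix libraries 1, 3 and 5 and 1138 without PBS cervix libraries 5 to 8, where Has3 turned to -0.0857 and Hyal1 to 0.0038. Upper-quartile factors moved the median of all genes to 0.105 in the hCG tissue comparison and in the difference of responses. The cause was not tested for any of these.

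The label number was also used as a replicate block. Levels of libraries with the same number did not deviate together in every pair (r above 0.1 in 3 of 9 hCG and 5 of 9 PBS pairs of cervix and myometrium), and 2 of 9 and 3 of 9 cervix libraries correlated best with their own number. Between hCG and PBS libraries of the same number, r was above 0.1 in 4 of 9 cervix and 3 of 8 myometrium pairs. The median r was 0.091 and -0.042. Such a pair comes from mice of different treatment, so there the number cannot stand for 1 animal. The block gave 1185 genes in cervix, 2 in myometrium, 8235 and 5805 between the tissues in PBS and hCG mice, and 0 for the difference of responses (3486 at an unadjusted p under 0.05). The block turned Hyal1 to -0.12 and Cemip to -0.24 in myometrium and Has3 to -0.0344 in the difference of responses, and it changed no call of a member. Among the 5 pathway genes called in cervix, it ended the calls of Adamts1 (adjusted p = 0.0567) and Nf2 (0.0537) with edgeR, and Adamts4, Adamts5 and Ezr passed with it. Depth limits the lowest genes: a count of 0 allows a level of 0.551 CPM in the library with the fewest counts and 0.12 CPM in that with the most (3 counts, counting error only).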
